A study of Mus musculus with 6 samples.

Results

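The circles described here are exonic circular RNAs (circRNAs) of mouse ovary that lie between a pair of short introns. They were chosen from the authors' deposited table by annotation alone: the circle joins 2 to 9 exons, and the introns listed on either side of it are both shorter than 1000 nt. By this rule 1275 circles from 933 host genes were found among 27999 listed circRNAs (4.55%), or among 23827 exonic circles with 2 to 9 exons and 2 listed introns (5.35%). The remaining 22552 of these exonic circles, with at least 1 intron of 1000 nt or more, are called the other circles below.

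Ovaries were taken from mice of the inbred C57BL/6 strain on postnatal day 5 (n = 3) and at 6 weeks of age (n = 3), and the labels name no mutation or treatment of the animals. RNA was digested with RNase R, an exonuclease that removes linear RNA and spares closed loops, before random-primed libraries were sequenced. The authors compared a group named A with a group named B. No source used here says which letter is the neonatal and which the adult group, so no age is named below. The columns per library carry these letters and match no sample label. They were left out, so no level per library, no depth and no check of marker gene levels can be given.

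A circRNA forms when the splice donor at the end of an exon is joined to the acceptor of an exon further upstream, a reaction called back-splicing. Back-splicing is known to be helped by long flanking introns, in which inverted repeats or bound proteins can bring both ends of the future circle together. Mammalian genes also contain introns close to the smallest size that the spliceosome removes, and circles between such introns have little flanking sequence for pairing.

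The exact point that defines a circle is its back-splice junction. The authors' deposited table marks 12 of the 1275 circles as different between A and B, and for these the junctions are printed so that the molecules behind the comparison can be recognised. Each line gives 20 bases at the end of the donor exon in lower case and 20 bases at the start of the acceptor exon in capitals, 5′ to 3′ on the RNA, read from GENCODE M21 transcripts of GRCm38.
Lrrc16b circRNA7099: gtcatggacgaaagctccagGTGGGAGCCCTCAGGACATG
Lamb2 circRNA3434: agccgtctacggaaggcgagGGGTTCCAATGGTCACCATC
Baiap2l1 circRNA2274: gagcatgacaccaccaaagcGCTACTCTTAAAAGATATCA
Adck5 circRNA6796: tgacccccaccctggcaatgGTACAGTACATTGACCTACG
Adck5 circRNA1177: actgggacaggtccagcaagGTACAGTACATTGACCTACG
Slc6a8 circRNA22: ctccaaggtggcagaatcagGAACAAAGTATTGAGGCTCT
Zbtb48 circRNA21591: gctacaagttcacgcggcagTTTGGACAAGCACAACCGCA
Letmd1 circRNA21024: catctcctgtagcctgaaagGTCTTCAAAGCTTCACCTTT
Sema6d circRNA2893: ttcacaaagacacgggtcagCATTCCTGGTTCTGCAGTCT
Dgke circRNA567: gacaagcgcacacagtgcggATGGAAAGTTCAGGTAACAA
Snrnp200 circRNA2899: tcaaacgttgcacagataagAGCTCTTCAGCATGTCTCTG
Gas5 circRNA3179: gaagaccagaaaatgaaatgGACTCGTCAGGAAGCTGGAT
The Adck5 lines end in the same capitals because both circles use the same acceptor and differ in the donor.

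The introns beside the marked Adck5 circles are among the shortest of the class and show how little flanking sequence a circle can have. They could be read because an annotated transcript retains them. The intron upstream of both circles covers chr15:76593860-76593937 on the plus strand (78 nt), that downstream of circRNA1177 chr15:76594285-76594363 (79 nt) and that downstream of circRNA6796 chr15:76594611-76594673 (63 nt). Capitals mark the first 2 and last 2 bases, GT and AG, by which the spliceosome recognises the ends.
Adck5 upstream intron: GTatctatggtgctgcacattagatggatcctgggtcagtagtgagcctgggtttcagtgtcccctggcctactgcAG
Adck5 intron after circRNA1177: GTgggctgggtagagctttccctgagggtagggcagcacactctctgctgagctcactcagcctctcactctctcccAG
Adck5 intron after circRNA6796: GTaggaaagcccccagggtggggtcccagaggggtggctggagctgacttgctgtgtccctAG
Their GC share was 53.8%, 60.8% and 65.1%.

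Intron length chose the circles, so the lengths are given as a description. The longer of the 2 introns had a median of 528 nt (quartiles 240 and 779.5) and the shorter a median of 207 nt (84 and 418). The shortest single intron measured 63 nt, and in 163 circles both introns were under 100 nt. The smallest sum of both introns, 133 nt, belonged to circRNA15434 of Adck5, a gene of the atypical ADCK kinase family. Next came circRNA12984 of the zinc finger gene Zfp276 and circRNA6800 of Cpsf1 (138 nt each), then circRNA10301 of the zinc finger gene Zbtb48, circRNA12979 of Piezo1, a mechanically gated channel gene, and circRNA5980 of the RNA helicase gene Skiv2l (139 nt each). At the limit, 5 circles from Kcp, Larp1 (2 circles), Tcf3 and Ep300 had a longer intron of 999 nt. Just outside it lay circles of Zdhhc7 (1000 nt), Topbp1 (1001 nt, 2 circles), Rbl1 and Eif4g1 (1002 nt each). The upstream intron was the longer in 589 circles and the downstream intron in 678.

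Introns inside the circles, which the rule did not use, were short as well. Of the 1275 circles, 1262 could be placed on their named isoform. The median intron inside these circles measured 401 nt, against 2195 nt inside the other circles. All introns inside were under 1000 nt in 59.4% of the circles (exact 95% interval 56.6 to 62.1), against 12.4% of the other circles (12.016 to 12.9). The circles therefore spanned little of the genome, with a median of 1320 nt against 7471 nt. Counted per circle, so that a host with several circles counts several times, the host isoforms leaned toward compact genes, though not all were compact. A median of 76.1% of the introns of an isoform were under 1000 nt, and 22.2% for the other circles. This share counts the flanking introns, which the rule required to be short. Without them, the median intron length per isoform was centred on 468.75 nt, and on 2058 nt for the other circles. These values still include the introns inside the circle. Every intron was under 1000 nt for 127 circles (10.1%). The longest intron of the isoform, flanking introns included, had medians of 4522 nt and, for the other circles, 22247 nt. The other circles have a flanking intron of 1000 nt or more by the rule, so this difference is partly set by the choice.

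The circles were also smaller and richer in G and C. Circles of 2 exons made up 42.6% (543), against 27.0% of the other circles, and 303 had 3 exons. The exonic length had a median of 366 nt (quartiles 277 and 522), against 468 nt (333 and 681). At equal exon count the medians lay closer, with 271 against 294 nt at 2 exons and 377.5 against 399 nt at 3. The circles were the shorter ones up to 7 exons, and the longer ones at 8 (1049 against 1000 nt) and 9 exons (1178 against 1123.5 nt). The shortest were both from Gas5, a small nucleolar RNA host gene that makes a long noncoding RNA, with 68 and 69 nt, followed by 96 nt of circRNA12626 from the collagen IV gene Col4a1. The longest, 2416 nt, was circRNA14738 of Caskin1, which encodes a synaptic scaffold protein. The exons had a median GC share of 54.1% (quartiles 49.2 and 57.3), against 49.1% (45.5 and 53.0). Within the class the median fell from 56.2% with both introns under 100 nt to 51.8% with a longer intron of 750 to 1000 nt.

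**Figure D1:**
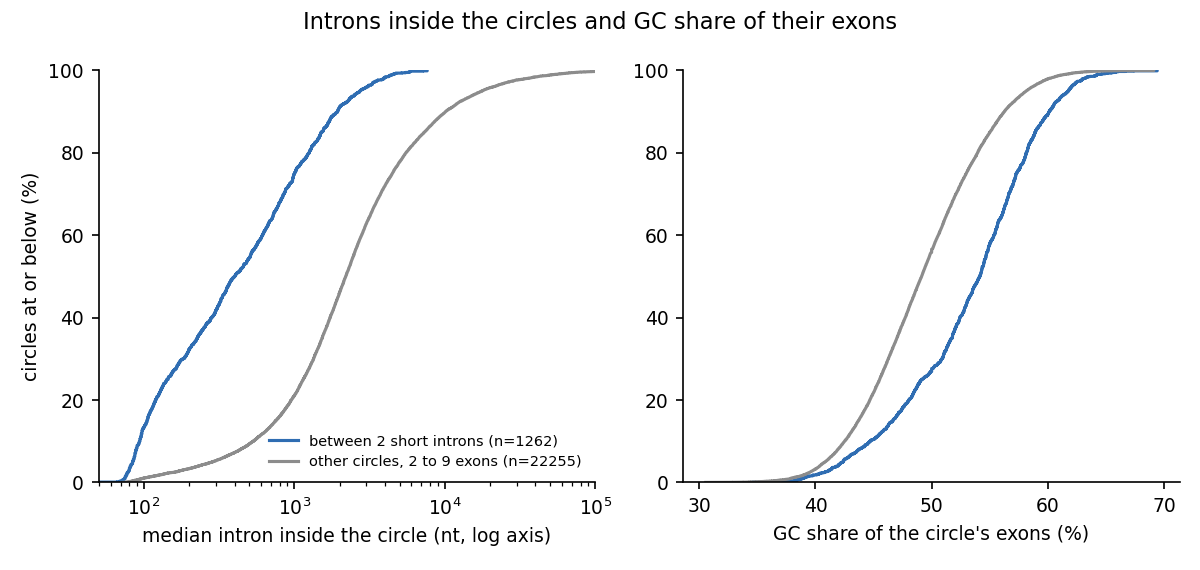
Cumulative share of circles by the median length of the introns inside the circle (left, nt on a log axis) and by the GC share of their exons (right, percent), for circles between 2 short introns (blue, n = 1262) and the other circles with 2 to 9 exons (grey, n = 22255). The blue curves lie toward short inner introns (median 401 against 2195 nt) and toward high GC (median 54.1 against 49.1%).

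The circle began at exon 2, behind the often long first intron, in 8.24% of the circles and in 23.2% of the other circles. The median first exon number was 8, against 5. A circle that begins at exon 2 has the first intron as its upstream intron, which the rule required to be under 1000 nt. The rule therefore bears on these values and on the share with a start codon. Coding sequence alone was held by 1146 circles (90.8%, against 84.1%), the start codon by 28 (2.22%, against 9.97%) and the stop codon by 26 (2.06%, against 1.47%). Noncoding hosts gave 7 circles, from Gas5 (2), Rmst, Mirg, Gm14012, Ptprv and Gm10785. For exon properties that bear on splicing and reading frame, the shares differed by a few percentage points at most. The acceptor exon started with G in 49.8% (47.0 to 52.6) against 46.6% (45.9 to 47.3). The donor exon ended in AG in 57.0% against 58.3%, and the exonic length was a multiple of 3 in 39.0% against 39.5% of circles with coding sequence only. No test was made of these or the following shares, since circles of a host share exons and introns, and exact intervals cover counting error only.

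Small RNA genes sat inside several of the flanking introns. Box C/D and box H/ACA small nucleolar RNAs (snoRNAs) guide the modification of ribosomal RNA and are mostly cut from introns of genes for ribosome and translation proteins. GENCODE M21 places 20 snoRNA genes in introns beside 16 of the 1275 circles, from 13 hosts, and 5 circles had a snoRNA in both introns. Of 2351 distinct flanking introns, 20 held a snoRNA (0.851%, interval 0.520 to 1.31). The share was 30 of 9983 in the other introns under 1000 nt of the same isoforms (0.301%, interval 0.203 to 0.429). Among the hosts were the ribosomal protein genes Rpl4 and Rpsa, the translation initiation genes Eif4a1, Eif4a2 and Eif4g2, the chaperonin genes Tcp1 and Cct6a, and the nucleolar protein genes Ncl, Nop56 and Ppan. The remaining hosts were Gas5, Ipo7 and Rabggtb. Of the 16 circles, 10 had a value in a single library.

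The Gas5 circle circRNA3179 (chr1:161036208-161036579, plus strand) has a snoRNA on each side and is printed whole, with its introns, because it is the smallest circle of the class and one that the authors marked. The circle joins 37 bases of an exon, in lower case, to 31 bases of the next, in capitals. In the introns, read from an annotated transcript that retains them, capitals mark the snoRNA: Gm22357 (83 nt) in the upstream intron of 193 nt (chr1:161036015-161036207) and Gm23212 (60 nt) in the downstream intron of 240 nt (chr1:161036580-161036819).
Gas5 circRNA3179: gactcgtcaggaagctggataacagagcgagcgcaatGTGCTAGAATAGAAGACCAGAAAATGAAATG
Gas5 upstream intron: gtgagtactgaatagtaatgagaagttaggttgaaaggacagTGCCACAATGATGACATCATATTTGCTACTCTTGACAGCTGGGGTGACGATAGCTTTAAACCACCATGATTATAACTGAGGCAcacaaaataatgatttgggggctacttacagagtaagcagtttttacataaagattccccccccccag
Gas5 downstream intron: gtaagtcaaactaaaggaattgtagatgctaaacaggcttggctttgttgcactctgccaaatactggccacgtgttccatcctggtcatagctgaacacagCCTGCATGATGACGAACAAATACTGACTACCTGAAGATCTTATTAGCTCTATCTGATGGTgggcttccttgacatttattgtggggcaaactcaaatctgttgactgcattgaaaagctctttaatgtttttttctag
Both snoRNAs hold the letters TGATGA, those of the C box, followed by CTGA, those of the D box. These letters were searched in this order on the snoRNA strand and were found in 6 of the 20 snoRNAs (30%) and in 24.0% of 1507 annotated snoRNA genes. The neighbouring circle circRNA19543 of Gas5 uses the same 37-base exon as its end instead of its start, and in the authors' deposited table it had a value in a single library.

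MicroRNA hairpins lay in the downstream intron of 6 circles, from Mirg, Myh7, Sbf1, Sec24c, Skiv2l and Diap1. In 4 of the 6 the hairpin ended at the last base of the intron. The Skiv2l hairpin Mir6970 filled the whole intron of 67 nt, the arrangement known as a mirtron, in which splicing itself cuts out the hairpin. Mature sequences in RefSeq (GRCm38.p6) are given for 4 hosts, with the seed (bases 2 to 8), which pairs with target messages, in capitals.
mmu-miR-382-5p (Mirg): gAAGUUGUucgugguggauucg
mmu-miR-208b-3p (Myh7): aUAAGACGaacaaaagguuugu
mmu-miR-6959-3p (Sbf1): cUGCACCGaccugcucucccag
mmu-miR-6946-3p (Sec24c): uUUCUUCUcuucccuuucag
No 2 of these seeds are the same. The Sbf1 and Sec24c sequences end in cag, the last bases of their introns. Of the 2351 flanking introns 0.255% held a miRNA, against 0.431% of the other short introns of the same isoforms (intervals 0.0937 to 0.555 and 0.312 to 0.580). Of these 6 circles, 5 had a value in a single library.

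Sequence could be read for only part of the introns. An annotated transcript retained 432 of the 2550 flanking introns (16.9%), counted per circle, and both introns of 87 circles. These retained introns may differ from the rest. The 87 circles had a median longer intron of 189 nt, against 528 nt over the whole class, so they lie toward its shortest introns. Of the 432, 428 ran from GT to AG and 4 from GC to AG. Their median GC share was 53.4% (quartiles 46.4 and 58.4), and 267 of 427 had a lower GC share than the exons of their circle. The median difference, intron minus exon, was -2.36 percentage points. A reverse-complementary match between both introns, at least as strong as 20 perfectly paired bases, was present in 4 of the 87 circles (4.60%, exact interval 1.27 to 11.4). These were 2 circles of the cohesin loader gene Mau2, circRNA12741 and circRNA26049, which share an intron (66 nt at 83.3% identity), circRNA11250 of the sorting nexin gene Snx5 (62 nt at 80.6%) and circRNA22671 of the augmin gene Haus1 (67 nt at 77.6%). In these 4 circles the longer intron measured 674 to 959 nt, so the share among the 87 is not a share for the whole class. The fifth best, circRNA25049 of Ankrd17, reached 24 nt at 87.5%. Among the 12438 other circles with a longer intron under 10000 nt, the only ones examined, 11 had both introns retained, too few to set beside these.

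Circles between short introns were mostly seen in 1 library. A deposited p of 0.423 is what an unequal-variance comparison of 3 values with 3 returns when 1 of the 6 is above 0, whatever its size, and it was read as a value in a single library. This p stood in the authors' deposited table for 971 of the 1275 circles (76.2%, exact 95% interval 73.7 to 78.5), against 58.3% of the other circles (57.7 to 59.0). Values in both groups were present for 239 circles (18.7%, 16.64 to 20.998), against 32.0% (31.4 to 32.6). Values in A only were present for 682 (53.5%) and in B only for 354 (27.8%), against 46.5% and 21.6%. The 3401 circles with 1 short and 1 longer flanking intron were near these shares, with 72.9% in a single library (71.3 to 74.3) and 20.6% in both groups (19.2 to 22.0). The difference between these classes was not tested. With both introns of 10000 nt or more (3699 circles), 39.0% had a value in a single library and 47.3% had values in both groups.

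The share of circles with a value in a single library fell with intron length above 500 nt. It was 81.8% where the longer intron had 250 to 500 nt, 76.4% at 500 to 1000 nt, 69.5% at 1000 to 2000 nt, 62.4% at 5000 to 10000 nt and 45.2% from 50000 nt on. The difference from the other circles was present at every exon count from 2 (75.3 against 55.3%) to 9 (89.5 against 74.5%), with 19 circles at 9 exons. Between the quartiles of GC share it was present as well: above the upper quartile, where 693 of the circles lay, 76.2% against 59.3% had a value in a single library, and below the lower quartile 77.1% against 57.5%. Below the lower quartile of exonic length the shares were 74.3 and 56.1%. Among the 537 hosts with circles of both kinds, the share was higher among the short-intron circles in 252, lower in 116 and equal in 169. These hosts held 744 short-intron and 2145 other circles, so many had a lone short-intron circle, whose share is all or nothing. With most circles seen in a single library, this alone makes higher more frequent than lower, so the split of hosts cannot show a difference. Averaged over these hosts, the share with a value in a single library was 77.9% among short-intron circles and 65.5% among the other circles.

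**Figure D2:**
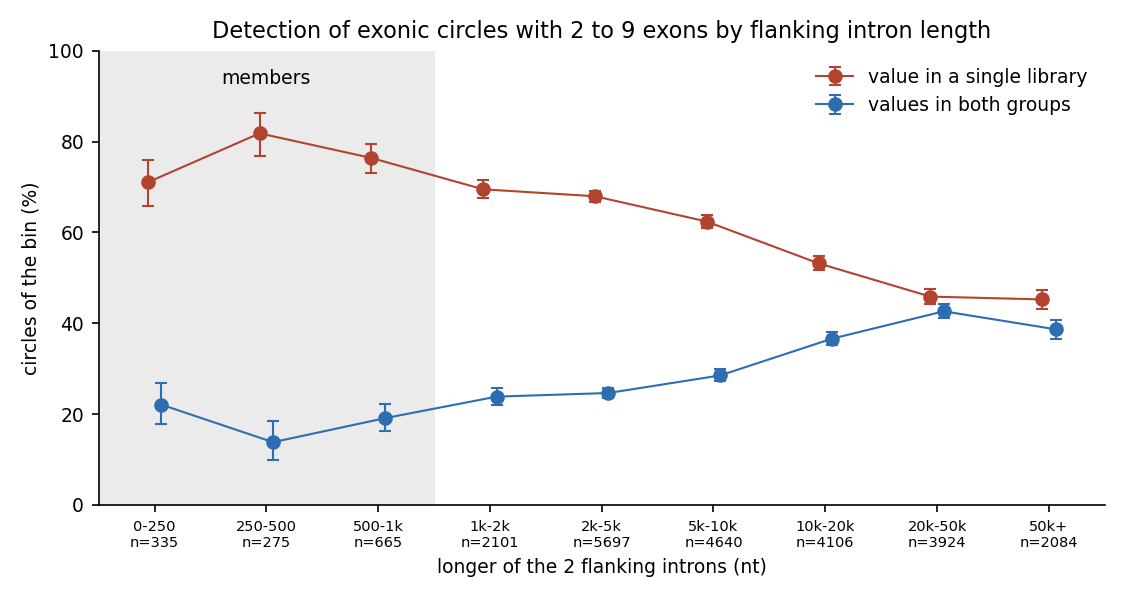
Share of exonic circles with 2 to 9 exons that had a value in a single library (red) or values in both groups (blue), in percent with exact 95% intervals, by the longer of the 2 flanking introns in nt. Grey shading marks the circles between 2 short introns. The red share is 81.8% at 250 to 500 nt and 45.2% from 50000 nt on, and lower again at 71.0% under 250 nt.

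Circles between the very shortest introns went against this order. With both introns under 100 nt, a single library held the value of 99 of 163 circles (60.7%, 52.8 to 68.3), and 48 (29.4%, 22.6 to 37.1) had values in both groups. With only 1 intron under 100 nt the shares were 76.6% (70.9 to 81.7) and 16.3% of 252 circles. With both introns of 100 nt or longer they were 79.0% (76.1 to 81.6) and 17.4% of 860 circles. With 1 circle per host, 67.0% of 91 circles with both introns under 100 nt had a value in a single library (56.4 to 76.5), against 80.3% of 676 with both introns of 100 nt or longer. Among circles that share no splice site with another circle the shares were 71.6% (61.4 to 80.4) and 83.4% (80.1 to 86.3). In that subset the share with values in both groups was 18.9% (11.6 to 28.3) with both introns under 100 nt, down from 29.4% over all circles, against 13.5% (10.8 to 16.6) with both introns of 100 nt or longer. The limit of 100 nt was set after the dip at the shortest introns had been seen.

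**Figure D3:**
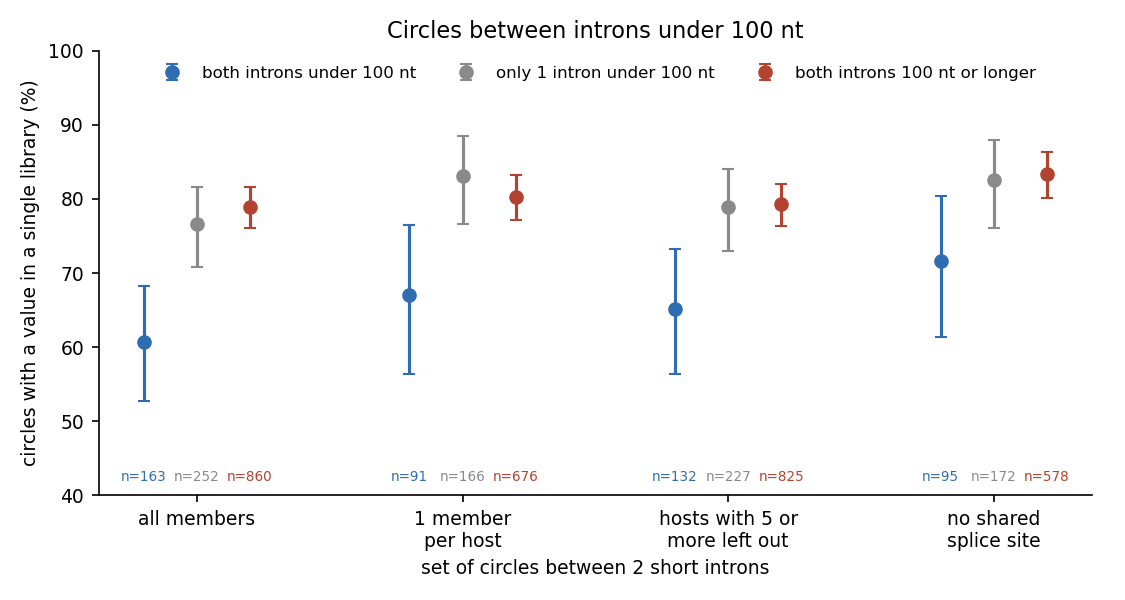
Share of circles with a value in a single library (percent, exact 95% intervals, axis from 40 to 100) with both flanking introns under 100 nt (blue), only 1 (grey) or none (red), for all circles between 2 short introns and for 3 subsets of them. The blue share is below the red one in each subset, for example 60.7 against 79.0% over all circles. The interval of the blue share is above 80% at its top where no splice site is shared.

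Several such circles came from some hosts. A single circle came from 717 of the 933 hosts, and 16 hosts gave 5 or more. The most came from Cpsf1, a subunit of the factor that cleaves messages before polyadenylation, from Lmf2, a lipase maturation factor gene, and from the focal adhesion gene Tln1, with 7 each. Flna (an actin cross-linker) and Dync1h1 (the dynein heavy chain) gave 6 each, as did Pkd1, Sbf1 and Top2a. The 7 Cpsf1 circles of 2 to 6 exons had introns of 66 to 145 nt. Values in more than 1 library were present for 4 of them. The authors' deposited table gave circRNA6799 in A only (p = 0.188), circRNA6798 in A only (p = 0.199), circRNA6801 at a log2 fold change of A over B of -1.19 (p = 0.49) and circRNA15437 at -0.20 (p = 0.916). Of the 7 Lmf2 circles, with introns of 70 to 230 nt, 5 had values in 2 or more libraries. In the authors' deposited table their p ran from 0.367 (circRNA1220, in A only) to 0.961 (circRNA6874, log2 fold change 0.11), and none was marked. For Tln1 only circRNA17796 had values in more than 1 library, at -0.70 (p = 0.694) in the authors' deposited table.

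**Figure D4:**
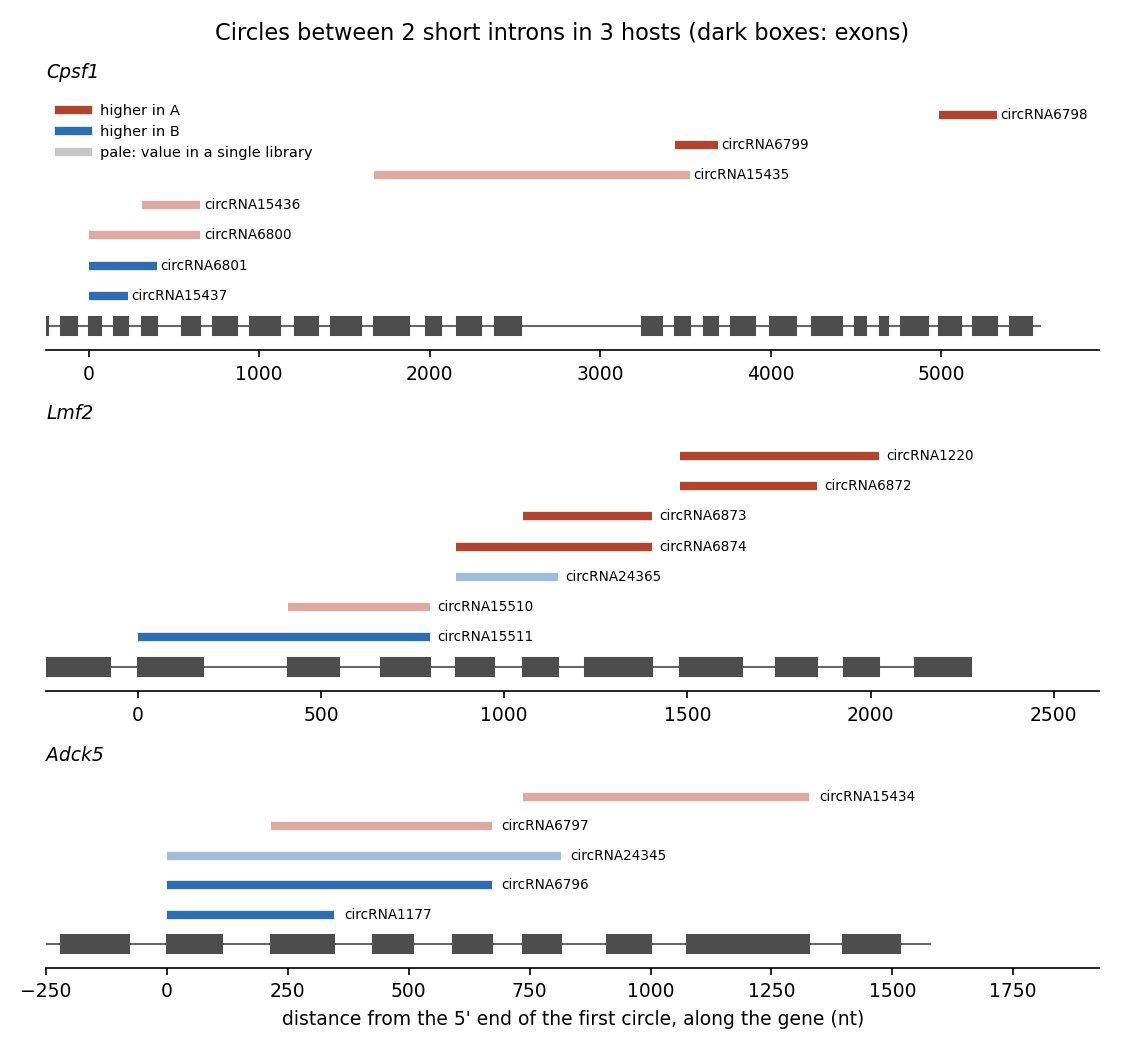
Circles between 2 short introns in Cpsf1, Lmf2 and Adck5, drawn along the gene in nt from the 5′ end of the first circle, with exons as dark boxes. Red bars were higher in group A and blue bars higher in group B in the authors' table, and pale bars had a value in a single library. Circles of a host overlap and share ends, as the 3 Adck5 circles that start at 0 nt do.

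The comparison of the design is between neonatal and adult ovary, and the authors' deposited table gives it as A against B. A circRNA is marked there as different at an unadjusted p under 0.05 and a log2 fold change of 1 or more in either direction. By this rule 12 of the 1275 circles were marked (0.941%, exact interval 0.487 to 1.64), and over all 27999 circRNAs 489 were (1.75%). A circle with a value in a single library cannot be marked by this rule. Among circles with values in 2 or more libraries, 12 of 304 were marked (3.95%, 2.06 to 6.79), close to the 4.59% of all 10644 such circRNAs. After adjustment none of the circles between short introns passed 0.05: the authors' deposited table has 0.522 as their lowest adjusted p, and 12 had an unadjusted p under 0.05. The smallest over the whole table was 0.425. Of the 12, 7 were higher in A (1.23% of all circRNAs were marked in this direction) and 5 higher in B (0.521%).

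Most circles of the class were higher in A, as were most circRNAs of the catalogue. Among the 304 circles with values in more than 1 library, A was the higher group for 198 (65.1%, 59.5 to 70.5), against 70.5% of the other circles (69.5 to 71.4). For the 239 present in both groups, the authors' deposited table gave a median log2 fold change of 0.31 (quartiles -0.35 and 0.99), against 0.42 over all 8107 such circRNAs. The absolute value had a median of 0.70, against 0.73. Both medians above 0 show that the fold changes are not centred, and single values are given as deposited. Of 40 hosts with at least 2 circles of the class that had values in more than 1 library, in either or both groups, 21 had all of them higher in A, 7 all higher in B and 12 circles on both sides.

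**Figure D5:**
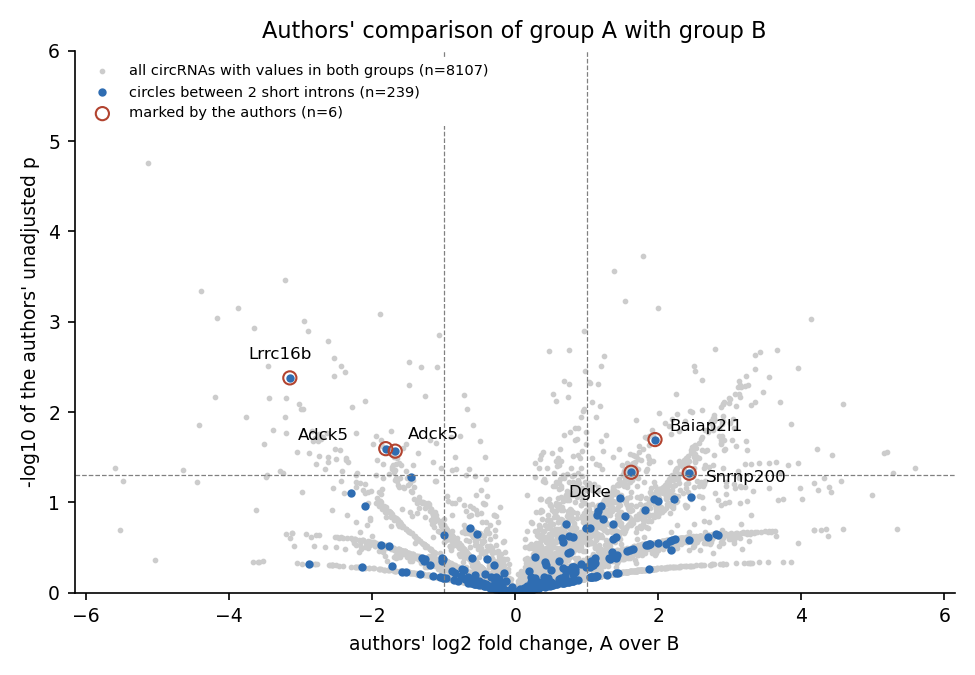
Authors' log2 fold change of A over B (horizontal) and -log10 of their unadjusted p (vertical) for all circRNAs with values in both groups (grey, n = 8107) and for circles between 2 short introns (blue, n = 239), with the 6 marked among the latter ringed in red. Dashed lines stand at the authors' p limit and at log2 fold changes of -1 and 1, and the ringed circles lie from -3.15 (Lrrc16b) to 2.43 (Snrnp200).

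Among marked circles with values in both groups, 3 were higher in B. Lrrc16b, a gene of the CARMIL family of actin capping protein regulators, gave circRNA7099 (chr14:55502225-55503031, plus strand, 2 exons, coding sequence, introns of 331 and 805 nt). Its log2 fold change in the authors' deposited table was -3.15, or 8.89-fold higher in B (p = 0.00418), the smallest p and largest absolute fold of the class. It was the only circle listed for this host. Adck5 gave circRNA6796 (chr15:76593938-76594610, 4 exons) at -1.81 (p = 0.0254) and circRNA1177 (chr15:76593938-76594284, 2 exons) at -1.68 (p = 0.027), per the authors' deposited table. These nested circles share their first 2 exons and their acceptor, so they are not independent. The other 3 circles of Adck5, all between short introns, were seen in 1 library each, circRNA24345 in B and circRNA6797 and circRNA15434 in A.

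Another 3 were higher in A. Baiap2l1, which encodes a membrane-curving actin regulator, gave circRNA2274 (chr5:144278528-144285595, minus strand, 5 exons). The authors' deposited table has it 3.87-fold higher in A (log2 fold change 1.95, p = 0.0201). Dgke, the diacylglycerol kinase epsilon gene, gave circRNA567 (chr11:89041448-89049900, minus strand, 5 exons) at 1.62 (p = 0.0463, from the authors' deposited table). The authors' deposited table has a nested Dgke circle of 4 exons, circRNA5154, at 1.83 (p = 0.296), unmarked. Snrnp200, the helicase that unwinds U4 from U6 in the spliceosome, gave circRNA2899 (chr2:127237461-127238235, plus strand, 3 exons). The authors' deposited table has it at 2.43 (p = 0.0474), 5.40-fold higher in A. Snrnp200 had 5 circRNAs with values in more than 1 library, each higher in A, among them circRNA18923 between short introns at 0.77 (p = 0.743, from the authors' deposited table).

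The other 6 marked circles had values in 1 group only, so no fold change can be given. In A only were a circle of Lamb2, which encodes the laminin beta 2 chain of basement membranes (circRNA3434, chr9:108480756-108481422, introns of 82 and 81 nt, p = 0.00611 in the authors' deposited table), and one of the creatine transporter gene Slc6a8 (circRNA22, chrX:73677321-73679188, p = 0.0265). The semaphorin gene Sema6d (circRNA2893, chr2:124657971-124658565, p = 0.0413) and Gas5 (circRNA3179, p = 0.0492) were others in A only, per the authors' deposited table. In B only were a circle of Zbtb48, which encodes a telomere-binding zinc finger protein (circRNA21591, chr4:152020190-152020704, introns of 74 and 69 nt, p = 0.0311), and one of Letmd1 (circRNA21024, chr15:100469685-100476886, 7 exons, p = 0.0314), in the authors' deposited table. Another Zbtb48 circle differs from it by a few bases. This circRNA10301 ends at 152020708, 4 nt further, on an isoform with another acceptor, and stood at -0.35 (p = 0.662) in the authors' deposited table.

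Circles just short of the authors' limit numbered 5 by the smallest p. Fbxo18, a helicase gene, gave circRNA21657 in B only (p = 0.0503), Naprt1, a gene of NAD synthesis, gave circRNA6789 at -1.46 (p = 0.0522) and Jmjd8 gave circRNA20853 in B only (p = 0.0545), all from the authors' deposited table. They were followed, in the authors' deposited table, by circRNA3080 of Fam134a in A only (p = 0.0683) and circRNA17541 of the ATP-gated channel gene P2rx7 at -2.29 (p = 0.0788). The snoRNA-flanked circle circRNA821 of Tcp1 stood at 2.45 (p = 0.0866) and its neighbour circRNA14715 of the same host at -0.9997 (p = 0.686) in the authors' deposited table. Between them lies 1 intron of 282 nt, which is downstream of circRNA14715 and upstream of circRNA821.

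Host lists for ovary and for basic cell functions differed in how many of their circles lay between short introns. Over all exonic circles with 2 to 9 exons this share was 5.35%. It was 21.2% for translation and aminoacyl-tRNA synthetases (28 of 132 circles, 17 hosts, exact interval 14.6 to 29.2). RNA splicing and processing had 16.6% (32 of 193, 18 hosts, 11.6 to 22.6). Granulosa cell and steroid synthesis genes had 12.1% (16 of 132, 12 hosts, 7.09 to 18.9). Cytoskeleton and motors had 11.5% (38 of 330, 14 hosts) and extracellular matrix 11.4% (24 of 210, 16 hosts). Hosts with several circles weigh in these shares: Cpsf1 gave 7 of the 32 and Flna 6 of the 38. The share was 10% or less for oocyte, meiosis and piRNA genes (5 of 50), cell division and DNA repair (29 of 302, 9.60%), chromatin regulators (33 of 488, 6.76%) and ubiquitin ligases and deubiquitinases (27 of 521, 5.18%). Markers of oviduct, leukocytes, endothelium and smooth muscle had 4 of 61 (6.56%).

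Few circles of these lists had values in more than 1 library, and the authors' deposited table marked 2, those of Snrnp200 and Lamb2. Over all circRNAs with values in more than 1 library, 70.1% were higher in A, and the median log2 fold change over those in both groups was 0.42 in the authors' deposited table. The counts of the lists stand beside these and were not tested against them, since circles of a host are not independent. In RNA splicing and processing, 8 of 11 were higher in A, with a median log2 fold change of 0.60 over the 8 present in both groups (authors' deposited table). In this list circRNA2944 of the exonuclease gene Xrn2 was in A only (p = 0.0805) in the authors' deposited table. In translation 5 of 8 were higher in A (median 0.41 over 7 in both groups), with circRNA9334 of Gcn1l1, an activator of the amino acid starvation response, at 2.10 (p = 0.291) in the authors' deposited table. In cell division and DNA repair, 8 of 8 were higher in A (median 0.31 over 6), with 2 circles of the topoisomerase gene Top2a in A only (p = 0.184 for circRNA5215 and circRNA5216) in the authors' deposited table. Top2a gave 6 circles of the class, of which 33.3% had a value in a single library. Several of the 8 therefore came from this host and are not separate cases. The extracellular matrix list had 4 of 4 higher in A, ubiquitin ligases 6 of 8 and cytoskeleton and motors 5 of 8.

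Lists with ovarian cell genes were small. Of 5 granulosa and steroid synthesis circles with values in more than 1 library, 4 were higher in B (median -0.15 over the 4 present in both groups, authors' deposited table). Among them was circRNA20742 of Hsd17b1, which makes estradiol from estrone, in B only between introns of 87 and 80 nt (p = 0.237 in the authors' deposited table). A circle of Cyp11a1, the cholesterol side-chain cleavage gene (circRNA23351), was seen in 1 library of B, and one of the anti-Müllerian hormone receptor gene Amhr2 (circRNA15566) in 1 library of A. In the oocyte list 2 of 2 were in A only, circRNA8300 of the zona pellucida gene Zp2 and circRNA10796 of the germ cell transcription factor gene Sohlh1 (p = 0.185 each in the authors' deposited table). Chromatin regulators had 4 of 5 higher in B (median -0.35 over 5). The 4 circles of the oviduct, leukocyte, endothelial and smooth muscle list, from Smtn, Eng, Myh11 and Pdgfrb, had a value in a single library each. In bulk ovary RNA, fewer cells of a type and less RNA per cell cannot be told apart.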

How the data were processed

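The data are RNase R-treated total RNA libraries of mouse ovary, 3 per age. Bowtie 0.12.2 and the GRCm38 build are listed, per the submitters' processing notes. The role of Bowtie, the circRNA caller, its filters and the annotation were not given in the sources used here. Deposited tables hold 27999 circRNAs each, and 1 further line of each is not analysed here. The authors deposited, per the file headers, a log2 fold change of group A over group B, infinite where 1 group is at 0, and a p-value with an adjusted p-value from a test that is not named. The 26 value columns per library and group mean match no label and were not used, so no test on counts was run, and depth is unknown.

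A deposited p-value of 0.423 (tolerance 1e-09), the result of an unequal-variance comparison in which 1 of 6 values is above 0, was read as detection in 1 library. None of the circles with this p had values in both groups. Intron lengths are end minus start of the listed intervals. Circles were placed on their named isoform in GENCODE M21 by exact exon ends and exon count. A small RNA counts as in an intron when 90% of it lies there. No genome was given, so introns were read from transcripts that retain them; matches were scored with blastn 2.17.0 (word size 7, reward 2, penalty -3). Shares carry exact Clopper-Pearson 95% intervals (SciPy 1.17.1, Python 3.11.15), which cover counting error only. The single-library p and the reading of sequence were tested on simulated data. The intervals were checked on a known answer and the intron limit only on fixed lengths around it.

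Named are marked circles, the 5 hosts with most circles, the 5 shortest and the 5 on each side of the limit by intron length, the 5 with the best match, the 5 smallest p not marked and up to 4 per list in 10 lists. Pkd1, Sbf1, Top2a, hosts of small RNAs, extremes of length and other circles of marked hosts were named after their values were seen. The circles and lists were chosen with earlier results of these data known. Nothing says that libraries of an age came from separate animals, so the authors' p-values may measure technical spread in part.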

Additional observations from a re-analysis of the deposited data

How the results depend on the processing

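Of 37 alternative values, 25 were counted as near the reported one (a share within its interval, a median GC share within its quartiles, a count within 1.5 times), and 8 of the 37 were added after seeing the data. The 25 include the values of 66.3% and 70.5% for the other circles given below. These were not checked by this rule and lie outside the interval of their reported share (58.3%, 57.7 to 59.0). The rule gave 610 circles at a limit of 500 nt and 3376 at 2000 nt. The marked count was 2 at p under 0.01, 7 at 500 nt, 34 at 2000 nt and 6 with 1 circle per host, and the marked share was 3.95% without circles seen in a single library. Values in both groups were present for 21.9% at 2000 nt and 16.3% with 1 circle per host. The share with a value in a single library was 72.0% at 2000 nt, 79.5% with 1 circle per host and 81.9% among circles that share no splice site, against 66.3% and 70.5% for the other circles in these last settings. The share higher in A ran from 61.5 to 65.0% over its alternatives, and the median GC share of retained introns from 50.7 to 54.9%. The settings with 1 circle per host kept the circle of greatest exonic length. The cause of these shifts was not tested. The planned values for whole flanking introns could be had only for retained introns. No paired analysis was possible because the value columns carry letters that match no sample label, and leaving out a replicate was not run for the same reason.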
